A study of Arabidopsis thaliana with 30 samples.

Results

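The transcripts described here are those of nad2, nad4L, cox2 and ccb382, protein-coding genes of the mitochondrial genome, in seed of Arabidopsis thaliana between harvest and the end of the first days of germination. Members were all probe sets whose annotation names one of these genes and no nuclear locus, which gave 1 probe set for each gene, and the 4 genes stand among 13350 that have a probe set naming them alone. Seed of ecotype Col-0 in all groups was measured on 30 one-colour Affymetrix arrays in 10 groups of 3. Unimbibed seed was taken fresh at harvest (H) and as dry seed once ripened (0 h). Stratified seed was kept dark at 4 °C for 1, 12 or 48 h (1 h S, 12 h S, 48 h S), and seed stratified for the full 48 h was then moved to constant light (100 µE m-2 s-1) and 22 °C for 1, 6, 12, 24 or 48 h (1 h SL to 48 h SL). Each sample was 80 mg of surface-sterilised seed, plated on MS medium where it was imbibed. Imbibition, cold and darkness began together, as did light and warmth, and the parts of each pair cannot be told apart. Nothing in the labels says whether the 3 replicates of a group came from separate cultures, so a p-value here speaks only to how far these samples scatter, and that scatter may be technical.

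Mitochondria of seed plants make most of their ATP through a respiratory chain whose complexes combine subunits from 2 genomes. The products of nad2 and nad4L are hydrophobic subunits of the proton-pumping membrane arm of complex I, the NADH dehydrogenase. The product of cox2 is the subunit of complex IV, cytochrome c oxidase, that carries the copper centre taking up electrons from cytochrome c. The gene ccb382, listed as ccmFN1 in the current reference annotation, encodes part of the machinery that attaches haem to apocytochrome c. Plant mitochondrial transcripts need C-to-U editing, and nad2 is stitched together from separate precursor RNAs by trans-splicing. Mature dry seed holds poorly differentiated promitochondria, which develop inner membranes after water uptake. In plant mitochondria a poly(A) tail usually marks an RNA for decay, and the standard Affymetrix labelling reaction primes from poly(A). The intensities therefore may follow tailed transcripts and not the whole transcript pool, which was not tested.

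All values are probe set intensities as the authors normalized them, given as mean ± SD of 3 arrays. Differences are on the scale log2(intensity + 16), with the standard error from limma, and a change was called where the log2 difference was at least 1 and the p adjusted by Benjamini-Hochberg over the 22746 probe sets tested was under 0.05. The addition of 16 understates the change of dim probe sets. Array medians averaged 12.3 in the freshly harvested group and 19.1 at 48 h of light. No detection calls were used, so values below the array median are given as deposited and their distance from background is unknown. Seed markers could be checked in part: of 17 storage, oleosin, embryogenesis and glyoxylate cycle markers 3 were named, and AT3G01570 fell from a mean of 13400 in dry seed to 16.6 at 48 h of light and OLEO3, an oleosin, from 640 to 52.2. The third, ICL (isocitrate lyase of the glyoxylate cycle), had 10300 and 14500, a log2 difference of 0.48 that was not called. Every mean in whole seed mixes cell types, and fewer cells of a type and less RNA per cell cannot be told apart.

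Over the 10 groups the 4 genes followed 3 courses. cox2 and nad4L were high from harvest to 12 h of stratification, fell between 12 and 48 h of stratification and were lowest in light. nad2 was above its later levels only in unimbibed seed and fell within the first hour of stratification. ccb382 rose over that same hour and was not below its dry-seed level in any later group. All 4 differed somewhere over the course by limma's moderated F test, with adjusted p = 5.35e-21 for cox2, 1.80e-14 for nad4L, 4.89e-06 for nad2 and 5.78e-05 for ccb382, but 89.4% of all probe sets passed that test. As a description, the 10 group means of nad4L and cox2 correlated at 0.99, those of nad2 with either at 0.42 and 0.50, and those of ccb382 with nad2 at -0.81, all on the same arrays.

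**Figure D1:**
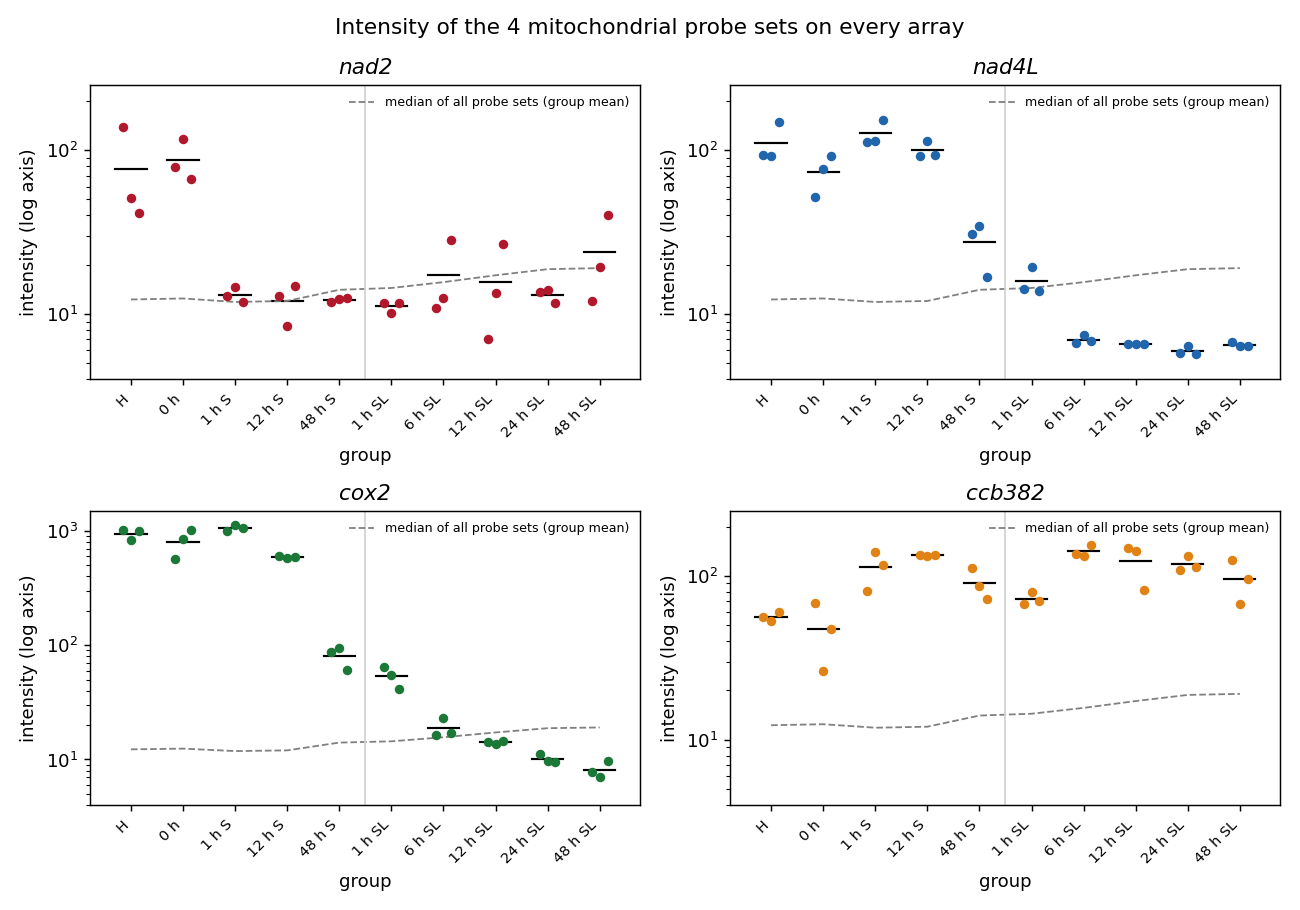
Intensity (log axis, arbitrary units) of the probe sets of nad2, nad4L, cox2 and ccb382 on each of the 30 arrays (points, 3 per group), with the group mean (black bar) and the mean of the array medians over all probe sets (dashed line); the grey vertical line separates stratification from light. cox2 spans 7.09 to 1120 and nad4L 5.72 to 153, while ccb382 stays above the dashed line throughout.

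The complex I gene nad2 was measured at 138, 50.8 and 41.3 on the harvest arrays and at 79.2, 116 and 66.9 on those of dry seed. The means, 76.7 ± 53.2 and 87.5 ± 25.8, did not differ by the test (log2 difference 0.28 ± 0.29, adjusted p = 0.912), and the groups overlapped. After 1 h of stratification the arrays read 12.9, 14.7 and 11.8. All 3 lay below every array of dry seed, and nad2 fell from 87.5 ± 25.8 to 13.1 ± 1.43, a log2 difference of -1.80 ± 0.29 (95% interval -2.41 to -1.19, adjusted p = 3.66e-04) and 6.66-fold in the means. In this step 0.514% of all probe sets changed, 0.154% downwards. Without any single array of the groups compared the difference ran from -1.95 to -1.61 and stayed called. It had an adjusted p = 0.0545 when the fit held the dry and 1 h groups alone, and at a pseudocount of 64 it was -0.96, under the size threshold.

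From 1 h of stratification on, nad2 stayed near the array median. Stratified seed had means of 12.1 ± 3.30 (12 h) and 12.2 ± 0.362 (48 h). Seed in light had 11.2 ± 0.914, 17.3 ± 9.58, 15.7 ± 10.0, 13.1 ± 1.28 and 23.9 ± 14.7 at 1, 6, 12, 24 and 48 h of light. None of the 7 steps between these groups was called, with log2 differences from -0.08 to 0.40. The wide SDs in light came from single arrays: 28.3 beside 11 and 12.5 at 6 h, 26.7 beside 7.05 and 13.5 at 12 h, and 40.4 beside 12.0 and 19.5 at 48 h. At 48 h of light nad2 was lower than in dry seed (log2 difference -1.41 ± 0.29, adjusted p = 1.76e-04), with no overlap of the arrays. In order of level the groups separated once, between freshly harvested seed and 48 h of light (1.13, adjusted p = 0.00154), and no other neighbours in that order differed. Against its own array nad2 exceeded 64.1% to 79.6% of probe sets in the unimbibed groups and was under the array median on 15 of 30 arrays.

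The other complex I gene, nad4L, read 93.0, 91.5 and 149 at harvest, 52.1, 77.3 and 92.3 in dry seed, 113, 114 and 153 after 1 h of stratification and 91.7, 114 and 93.0 after 12 h. Dry seed lay below 1 h of stratification without overlap, at 73.9 ± 20.3 and 127 ± 23.1, a log2 difference of 0.68 ± 0.17 (adjusted p = 0.00868) that was under the size threshold. At 48 h of stratification the arrays read 30.8, 34.4 and 16.8. Here nad4L fell from 99.5 ± 12.5 to 27.3 ± 9.34, with no overlap (log2 difference -1.43 ± 0.17, adjusted p = 1.38e-07, 3.64-fold in the means). In this step 18.4% of all probe sets changed, 8.35% downwards. With a pseudocount of 64 the difference was -0.84 and uncalled.

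In light nad4L reached the lowest levels of its course. Arrays at 1 h of light read 14.2, 19.4 and 13.8, at 6 h 6.64, 7.42 and 6.89, and at 48 h 6.71, 6.41 and 6.42. The step from 1 to 6 h, from 15.8 ± 3.14 to 6.99 ± 0.398 without overlap, had an adjusted p = 0.0341 and a log2 difference of -0.47 ± 0.17, under the size threshold, and with a pseudocount of 1 it was called at -1.06. From 6 h of light on nad4L was under the array median on every array, above 28.2% to 40.2% of probe sets, and its means stayed between 5.95 and 6.99. The whole difference between dry seed and 48 h of light was -1.97 ± 0.17 (adjusted p = 3.17e-10), from 73.9 ± 20.3 to 6.51 ± 0.172, 11.3-fold in the means, and -0.96 with a pseudocount of 64. In order of level, freshly harvested seed, 1 h and 12 h of stratification and dry seed overlapped in neighbouring pairs, and the break came between dry seed and 48 h of stratification (1.05, adjusted p = 1.07e-05).

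The complex IV gene cox2 had its highest levels before and early in stratification. Its arrays read 1007, 830 and 992 at harvest, 563, 841 and 1011 in dry seed, and 1001, 1119 and 1057 after 1 h of stratification. Freshly harvested and dry seed did not differ by the test (log2 difference -0.26 ± 0.16, adjusted p = 0.616), nor did dry seed and 1 h of stratification (0.43 ± 0.16, adjusted p = 0.0661). The mean then went from 1059 ± 59.4 at 1 h to 590.2 ± 13.5 at 12 h of stratification, with arrays of 602, 575 and 594 all below those at 1 h. That difference, -0.83 ± 0.16, had an adjusted p = 3.74e-04 and was under the size threshold.

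Between 12 and 48 h of stratification cox2 fell to arrays of 87.4, 95 and 60.5. The mean fell from 590.2 ± 13.5 to 81.0 ± 18.2, a log2 difference of -2.66 ± 0.16 (95% interval -2.99 to -2.34, adjusted p = 1.16e-12) and 7.29-fold in the means. This is the largest of the 9 steps for any of the 4 genes. cox2 went on to 64.8, 54.3 and 41.5 at 1 h, 16.5, 23.1 and 17.0 at 6 h, 14.2, 13.6 and 14.6 at 12 h, 11.2, 9.63 and 9.51 at 24 h and 7.70, 7.09 and 9.70 at 48 h of light. Of the light steps that from 1 to 6 h was the closest to a call, at -0.99 ± 0.16 (adjusted p = 1.77e-05), and it passed at -1.45 with a pseudocount of 1 and at -1.04 with every array centred on its own median. It also passed without replicate 3 of 1 h of light (-1.12) and without replicate 2 of 6 h of light (-1.07).

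Over the whole light period cox2 fell from 81.0 ± 18.2 to 8.16 ± 1.37 (log2 difference -1.99 ± 0.16, adjusted p = 8.97e-11). It was the only one of the 4 called in this comparison, in which 31.7% of all probe sets changed, 16.5% downwards and 15.2% upwards, and with a pseudocount of 64 its difference was just short of the threshold. From dry seed to 48 h of light it fell by 5.05 ± 0.16 on the log2 scale (adjusted p = 2.02e-18), from 805 ± 226 to 8.16 ± 1.37 and 98.6-fold in the means. cox2 exceeded 92.4% to 96.2% of probe sets on every array up to 12 h of stratification and 35.6% to 41.1% at 48 h of light. With the last levels under the array median, the size of that fold rests on values near the dim end of the arrays.

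**Figure D2:**
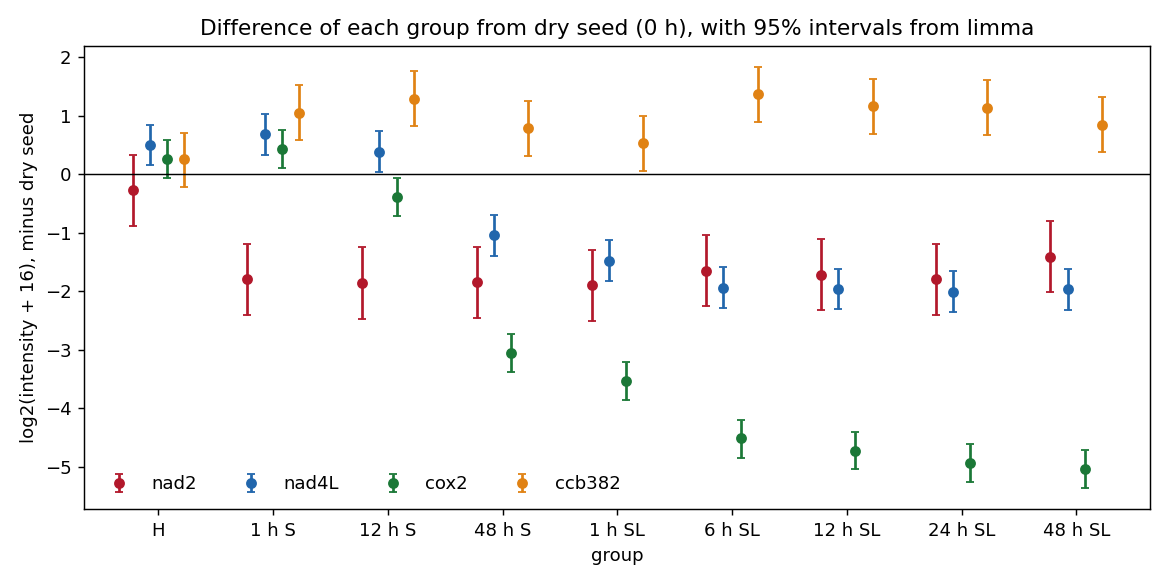
Difference of each group from dry seed (0 h) on the scale log2(intensity + 16) for nad2, nad4L, cox2 and ccb382 (points, 3 arrays per group), with 95% intervals from limma (bars); all points share the dry-seed arrays. cox2 reaches -5.05 at 48 h of light, nad2 stands at -1.80 already at 1 h of stratification and ccb382 at 1.05.

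The cytochrome c maturation gene ccb382 rose in the first hour of stratification, in which nad2 fell. The differences of nad4L and cox2 in that hour were also above 0, at 0.68 and 0.43, and were not called. The arrays of ccb382 read 56.1, 53.2 and 59.9 at harvest and 68.8, 26.4 and 47.1 in dry seed. After 1 h of stratification they read 81.3, 141 and 117, all above dry seed, and ccb382 rose from 47.4 ± 21.2 to 113 ± 29.9, a log2 difference of 1.05 ± 0.23 (95% interval 0.58 to 1.52, adjusted p = 0.00341). Of all probe sets 0.361% rose in this step. The call was close to the size threshold: the difference was 0.79 when replicate 2 of dry seed was left out, 0.90 when replicate 2 of 1 h of stratification was, 0.83 after quantile normalization and 0.67 with a pseudocount of 64. In a fit of the dry and 1 h groups alone it had an adjusted p = 0.227.

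Later group means of ccb382 lay between 72.4 and 141. At 12 h of stratification the arrays were nearly alike, at 134, 132 and 134 (133 ± 1.44), at 48 h they read 112, 86.2 and 71.8, and at 1 h of light 67.8, 79.3 and 70.0. At 6 h of light they read 137, 132 and 154, all above 1 h. This difference from 72.4 ± 6.11 to 141 ± 11.9 was 0.83 ± 0.23 (adjusted p = 0.00519), under the size threshold. The last groups had means of 124 ± 36.0, 118 ± 12.7 and 95.8 ± 28.9 at 12, 24 and 48 h of light. At 48 h of light ccb382 stood at 2.02 times its dry-seed mean, with overlapping arrays (124.8, 67.1 and 95.4) and a log2 difference of 0.84 ± 0.23 (adjusted p = 0.00194), under the size threshold. That difference was called at 1.08 without replicate 1 of dry seed, at 1.04 without replicate 2 of 48 h of light and at 1.05 with a pseudocount of 1. In order of level the 10 groups ran from 141 at 6 h of light to 47.4 in dry seed, and no neighbours in that order differed by the test. The probe set was above the array median on all 30 arrays.

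Counted together, 2 of the 4 genes changed in the first hour of stratification (1 up, 1 down, beside 0.514% of all probe sets) and 2 between 12 and 48 h of stratification (both down, beside 18.4%, of which 8.35% down and 10.1% up). From dry seed to 48 h of stratification 3 of 4 fell (nad2 by 1.85, nad4L by 1.05 and cox2 by 3.06 on the log2 scale), in a comparison in which 21.3% of all probe sets changed, 8.23% downwards and 13.1% upwards. When replicate 3 of dry seed (-0.90) or of 48 h of stratification (-0.86) was left out nad4L was uncalled, and ccb382 was called higher at 1.02 without replicate 1 of dry seed. Between dry seed and 48 h of light the same 3 genes fell, with 35.1% of all probe sets changed and 15.4% lower. No member was called in the remaining 7 neighbouring steps by limma. At an unadjusted p under 0.05 there were 1 of 4 between freshly harvested and dry seed, 1 between 1 and 12 h of stratification, 2 in the first hour of light, 3 between 1 and 6 h of light and 0 in the later steps. In these steps 0.321%, 3.77%, 0.787%, 8.68%, 4.34%, 7.22% and 7.65% of all probe sets changed, in order of time. The 4 genes were chosen with earlier results of these data known. Their counts beside the shares of all probe sets are therefore descriptions and no test.

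The other genes of the mitochondrial genome were followed through 19 further probe sets that name 1 such gene, for nad1 (7 probe sets), nad4, nad5 (2), nad6, nad7, nad9, cox1, ccb203, ccb206, ccb452, matR and orfX. From dry seed to 48 h of light 13 of the 19 fell, 0 rose and all 19 had a difference below 0, with a median of -1.38 beside -0.05 over all probe sets. Of all probe sets 15.4% fell and 19.7% rose in this comparison. cox1, which encodes the catalytic core subunit of complex IV, fell from 570 ± 110 to 14.8 ± 1.91 (-4.23 ± 0.13, adjusted p = 3.12e-18), next to cox2 at -5.05. Of the genes for complex I, nad9 fell from 196 to 5.93, nad6 from 139 to 4.46 and nad4 from 253 to 22.9, with log2 differences of -3.27, -2.91 and -2.68. The probe sets of nad5 fell by 2.91 and 2.85 on that scale, nad7 by 1.33 (from 62.5 to 14.5) and the open reading frame orfX by 1.38 (from 46.0 to 5.24). Among the cytochrome c maturation genes ccb452 fell by 2.22 on the log2 scale, from 90.1 to 6.02, while ccb203 (4.99 and 4.25) and ccb206 (12.4 and 5.49) were dim in both groups and not called. ccb382, at 47.4 and 95.8, was thus not matched between these 2 groups by a rise in any of the 3 other maturation probe sets. In the first hour of stratification, when ccb382 was called higher, ccb206 had 12.4 and 28.8 (0.59 ± 0.27, adjusted p = 0.144, overlapping arrays). ccb203 had a difference of 0.14 and ccb452 of 0.11 in that hour, neither called. Whether the course of ccb382 differed from those of the other maturation probe sets was not tested.

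**Figure D3:**
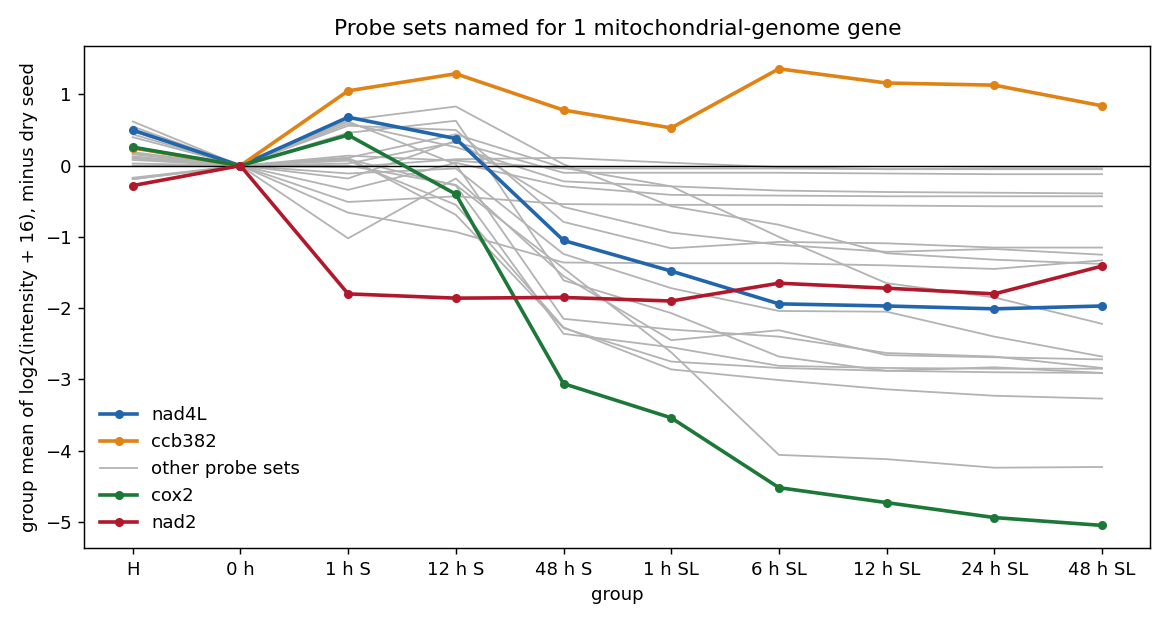
Group means of log2(intensity + 16) minus the mean of dry seed for the 23 probe sets that name 1 mitochondrial-genome gene, over the 10 groups; coloured lines are the 4 genes described here and grey lines the 19 others. Most grey lines drop between 12 and 48 h of stratification with cox2 and nad4L, and at 48 h of light ccb382 is the only line above 0.

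In single steps the 19 probe sets and the 4 genes met at different times. Between 12 and 48 h of stratification 9 of the 19 fell and 0 rose (median -0.93), beside 8.35% and 10.1% of all probe sets. Those that fell were nad5 at -2.25 and -2.08, 3 nad1 probe sets at -2.16, -1.37 and -1.29, nad9 at -1.72, nad6 at -1.59, nad4 at -1.20 and cox1 at -1.17. In the same step cox2 had -2.66 and nad4L -1.43. In the first hour of stratification, when nad2 fell, 0 of the 19 were called (median 0.07), beside 0.514% of all probe sets. Of the 19, 7 had a difference below 0, and 3 had an adjusted p under 0.05 but were under the size threshold. Of these 3 a nad1 probe set had 0.62 (adjusted p = 0.00724, no overlap) and a nad5 probe set 0.46 (adjusted p = 0.0427, overlapping arrays). The other was nad7 at -0.66 (adjusted p = 0.028, overlapping arrays). A different nad1 probe set had -1.02 (adjusted p = 0.118, overlapping arrays), the lowest of the 19. Another nad1 probe set had 16.3 ± 14.4 in dry seed and 5.29 ± 0.314 after 1 h, where every array lay below those of dry seed (-0.51 ± 0.18, adjusted p = 0.0512). Over the 10 group means it was the one of the 19 most like nad2 (Pearson r of 0.95, on the same arrays), followed by nad7 at 0.85. From dry seed to 48 h of stratification 9 of the 19 fell, beside 8.23% of all probe sets. On the log2 scale nad5 fell by 2.36 and 1.61, nad6 by 2.28, nad9 by 2.27, nad1 by 2.15 and 1.55, cox1 by 1.44, nad7 by 1.36 and nad4 by 1.24. Over the light period 7 of the 19 fell, beside 16.5% of all probe sets. cox1 fell by 2.80, ccb452 by 2.19, nad4 by 1.44, orfX by 1.40 and nad1 by 1.17 on that scale, nad5 from 34.1 to 4.33 and nad9 from 28.6 to 5.93. In order of start coordinate along the reference mitochondrial genome the protein-coding neighbours of nad2 were rps4 and nad6. As nad2 comes from separate precursor RNAs, 1 start coordinate cannot place all of it. nad6 had 139 in dry seed and 154 after 1 h of stratification (0.11, adjusted p = 0.796). ccb206, listed as ccmB beside cox2 in that order, had 12.4 in dry seed and 5.49 at 48 h of light and was not called. The neighbours of nad4L and ccb382 had no probe set naming them alone.

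Each of the 4 genes rests on 1 probe set, so agreement within a gene could not be checked. For nad1 it could: its 7 probe sets had differences between dry seed and 48 h of light from -2.84 to -0.04, with 4 called. Those uncalled were dim already in dry seed, with means of 5.23, 13.5 and 16.3 where array medians averaged 12.4. At such levels the addition of 16 leaves little room for a fall. The 4 called had dry-seed means from 33.5 to 166. Col-0 also carries a large copy of mitochondrial DNA in the nuclear chromosome that holds the AT2G loci, and 11 probe sets left aside here pair a mitochondrial gene name with such a locus. The annotation names no nuclear locus for any of the 4. Whether their probes, or those of the other mitochondrial-genome probe sets followed, also match the nuclear copy was not tested.

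Genes whose courses over the 10 group means were most like those of the members, among 6493 probe sets that name 1 gene and span at least 1 on the log2 scale, are given 3 to a member. Nearly all candidates were nuclear, so that most of those named are nuclear is no finding. For cox2 they were AT4G13160, AT1G17010 and AT1G08170 (Pearson r of 0.998, 0.997 and 0.997), with AT1G17010 at 3360 in dry seed, 114 at the end of stratification and 4.47 at 48 h of light. For nad4L they were AT5G59530, CHX20 (AT3G53720) and a probe set of the mitochondrial nad5, each at 0.995. For nad2 they were AT1G64560, AT1G43240 and AT5G40155 (0.988, 0.973 and 0.957). For ccb382 the likeness was lower, at 0.847 for AT1G06730, 0.811 for AT3G56830 and 0.802 for AT3G50340. All share the same arrays, and these correlations over 10 points are descriptions.

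Nuclear genes were followed through 8 lists drawn up by locus. They covered complexes I to IV, ATP synthase, alternative respiration, cytochrome c and cytochrome assembly, and mitochondrial RNA synthesis and processing. Of the 122 members of these lists 47 had a probe set naming them alone in the annotation used, with 48 such probe sets. For complex I this was 4 of 17 members and for ATP synthase 2 of 9. The others may be among the 8730 probe sets without a name or the 503 with several, so each list value describes only the named part. From dry seed to 48 h of light, a comparison in which 19.7% of all probe sets rose and 15.4% fell, 20 of the 48 rose and 5 fell, with a median of 0.84 beside -0.05 over all probe sets. Between 12 and 48 h of stratification, the step in which cox2 and nad4L fell, 6 of 48 rose and 3 fell (median 0.37), beside 10.1% and 8.35% of all probe sets, so these counts are near the background. In the first hour of stratification none was called, with a median of -0.08.

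For complex I, the complex of nad2 and nad4L, 1 of 4 nuclear probe sets rose from dry seed to 48 h of light and 0 fell (median 0.62). Of all probe sets 19.7% rose and 15.4% fell in this comparison, so 1 of 4 is near the background. AT4G02580 rose from 359 to 1720 (log2 difference 2.21 ± 0.08, adjusted p = 1.43e-17), and GLDH (AT3G47930), an enzyme of ascorbate synthesis that also takes part in complex I assembly, had 110 and 194 and a difference of 0.74. For complex II, which has no subunit among the 4 genes, 3 of 5 rose, SDH2-1 (AT3G27380, the brighter of its 2 probe sets, the other having 6.26 and 5.31), an iron-sulphur subunit of succinate dehydrogenase, from 90.6 to 1140 (3.44 ± 0.13) and its paralogue SDH2-2 (AT5G40650) from 128 to 789. For complex III 8 of 11 rose and 1 fell, with AT3G27240 from 148 to 1430 (3.14 ± 0.07) and AT5G25450 from 1650 to 36.8 (-4.98 ± 0.19, adjusted p = 8.31e-17).

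For complex IV, the complex of cox2, 3 of 7 nuclear probe sets rose and 1 fell (median 0.99), beside 19.7% and 15.4% of all probe sets. AT3G62400 rose from 195 to 1570 (2.91 ± 0.12, adjusted p = 4.37e-16) and AT3G15640 from 308 to 1160 (1.86 ± 0.10), beside the fall of cox2 from 805 to 8.16 between the same groups. Of the 2 ATP synthase probe sets AT5G47030 rose from 712 to 2060 (1.51 ± 0.08) and AT1G51650 had 1430 and 2730 (0.94). The list of alternative respiration, enzymes that bypass the proton pumps, was followed through 5 of its 14 members, NDB1, NDB2, NDB3, NDB4 and NDC1. Its alternative oxidase (AOX), NDA, PUMP1 and UCP2 genes had no probe set naming them alone, so the alternative oxidase was not measured here. Of the 5 probe sets 3 rose and 1 fell, with NDC1 (AT5G08740) from 19 to 142 and NDB3 (AT4G21490) from 6.70 to 65.3, both NAD(P)H dehydrogenases.

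The nuclear list nearest to ccb382 in function, cytochrome c and cytochrome assembly, had 1 of 5 higher and 2 lower at 48 h of light than in dry seed (median -0.77). Of all probe sets 19.7% were higher and 15.4% lower. CCMH (AT1G15220), which acts in the same cytochrome c maturation pathway as ccb382, fell from 52.7 to 9.72 (-1.42 ± 0.13, adjusted p = 2.23e-09), and AT1G53030 from 264 to 61.7 (-1.83 ± 0.18). Of 9 probe sets for mitochondrial RNA synthesis and processing 0 changed between dry seed and 48 h of light by limma, beside 35.1% of all probe sets. However, 4 of 9 rose from dry seed to 48 h of stratification (13.1% of all probe sets rose). From there to 48 h of light 4 of 9 fell (16.5% of all fell). AT5G14580 had 35.2 in dry seed, 162 once stratified for 48 h and 12.1 at 48 h of light, and AT5G15700 19.4, 58.9 and 6.02. At an unadjusted p under 0.05 4 of the 9 differed between dry seed and 48 h of light.

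**Figure D4:**
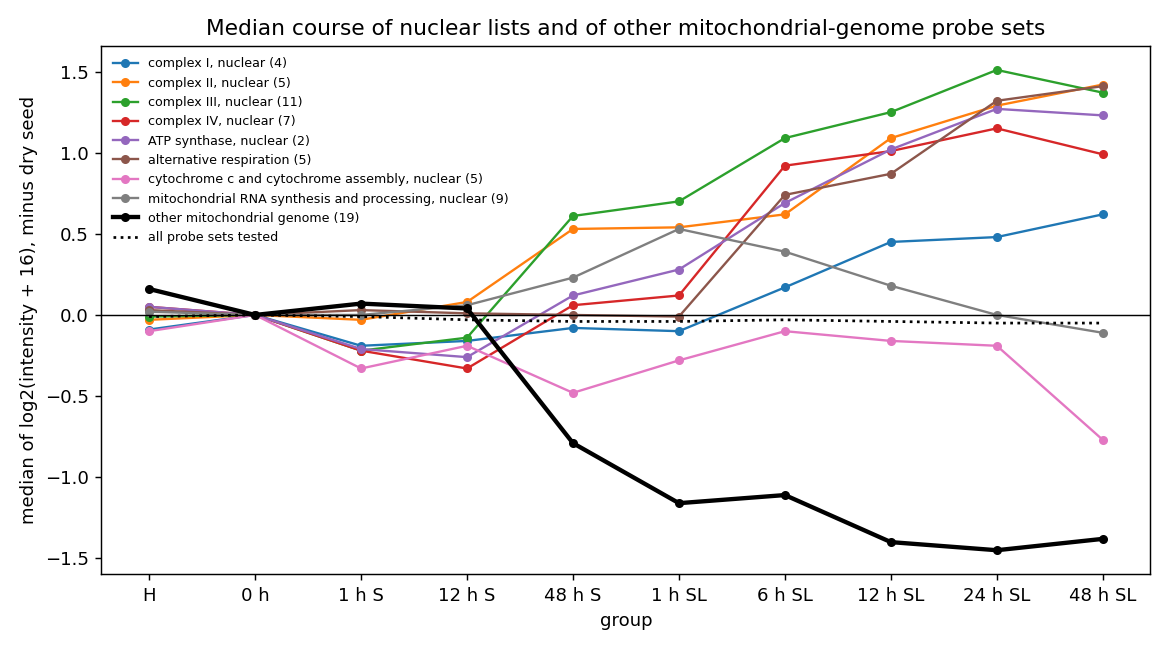
Median over each list of the group mean of log2(intensity + 16) minus that of dry seed, over the 10 groups, with the number of probe sets in brackets; the thick black line is the 19 other mitochondrial-genome probe sets and the dotted line all probe sets tested. At 48 h of light the mitochondrial-genome median is at -1.38 and those of nuclear complexes I to IV lie between 0.62 and 1.42.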

How the data were processed

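Biotin-labelled RNA of 30 seed samples was hybridized to one-colour Affymetrix arrays. The deposited values are intensities on a linear scale, 1 per probe set and array, normalized by the authors; the submitters' processing notes name MAS5, RMA and Partek, and which of them made these values is not stated there. Values ran from 2.54 to 32818 over 22810 probe sets, of which 64 controls were left out. Probe sets were named from the platform annotation (13513 with 1 name, 503 with several, 8730 with none) and loci from the TAIR10.1 gene table; loci without a symbol there are given by locus alone.

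Log2(intensity + 16) was fitted with limma 3.58.1 in R 4.3.3 over all 30 arrays, with 1 mean per group, 9 neighbouring and 3 longer comparisons and a moderated F test, adjusted by Benjamini-Hochberg over 22746 probe sets. The script was checked on simulated data. The number of arrays limits the precision. Alternatives were other pseudocounts, quantile normalization, median centring, a filter on dim probe sets, a replicate block, only the groups compared, and each array left out. The members and lists were chosen with earlier results of these data known. Named were all members, the other mitochondrial-genome probe sets called where a member was, and the 3 probe sets most like each member. Of each nuclear list the 2 members with the largest difference between dry seed and 48 h of light were named. ccb203, ccb206 and the ccb452, nad1, nad5 and nad7 values of the first hour of stratification were added after they were seen. The protocol gives 14 days of drying before 0 h, the design text 15.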

Additional observations from a re-analysis of the deposited data

How the results depend on the processing

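Counts are of the 4 genes called. With a pseudocount of 1 they went from 0 to 2 between 1 and 6 h of light, from 1 to 2 over the light period and from 3 to 4 between dry seed and 48 h of light. With a pseudocount of 64 they went from 2 to 0 in the first hour of stratification, 2 to 1 between 12 and 48 h of stratification, 3 to 1 between dry seed and 48 h of stratification, 3 to 1 between dry seed and 48 h of light and 1 to 0 over the light period; the larger pseudocount shrinks every difference of a dim probe set. Median centring gave 1 between 1 and 6 h of light and 2 over the light period; it shifted the median of all probe sets to -0.36 between dry seed and 48 h of light, where ccb382 was then 0.54, nad2 -1.71, nad4L -2.27 and cox2 -5.35. In the first hour of stratification quantile normalization gave 1, and a fit of only the groups compared gave 0 and 9 calls over all probe sets in place of 117, with fewer residual degrees of freedom. Leaving out single arrays gave 1 to 2 in the first hour of stratification, 2 to 4 between dry seed and 48 h of stratification, 3 to 4 between dry seed and 48 h of light, 1 to 2 over the light period (nad4L -1.11 without replicate 3 of 48 h of stratification) and 0 to 1 between 1 and 6 h of light. The F test stayed at 4, and the dim filter moved no count of members. The replicate block gave the same counts in all 12 comparisons (2 in the first hour of stratification); same-numbered arrays deviated with correlations from -0.26 to 0.30, and the samples share only a number. Signs turned only for uncalled differences. These were nad2 between 12 and 48 h of stratification (-0.06 with quantile normalization, -0.09 with median centring, -0.08 to 0.09 with arrays left out), ccb382 between 12 and 24 h of light (0.01 with quantile normalization, -0.26 to 0.10 with arrays left out) and ccb382 over the light period (-0.16 with median centring, -0.12 to 0.26 with arrays left out). With arrays left out they also were ccb382 between harvest and dry seed (-0.48 to 0.02), nad2 between 1 and 12 h of stratification (-0.13 to 0.04), nad2 (-0.32 to 0.15) and ccb382 (-0.33 to 0.03) between 6 and 12 h of light, and nad2 between 12 and 24 h of light (-0.29 to 0.16). Over all probe sets a pseudocount of 1 gave 345 and of 64 gave 40 calls in the first hour of stratification in place of 117, and 212 were called without replicate 3 of dry seed. The cause of the other moves was not tested.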

Other observations

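The 3 high nad2 arrays in light had a counterpart in the nuclear gene AT1G64560, the probe set most like nad2 over the group means. At 6 h of light it read 17.0, 17.6 and 58.8 beside nad2 at 11, 12.5 and 28.3, and at 48 h of light 24.2, 43.2 and 65.7 beside 12.0, 19.5 and 40.4. The array with the highest value was the same for both probe sets in 8 of the 10 groups, against 5 for AT1G43240 and 2 for AT5G40155. AT1G64560 was picked for its likeness to the group means of nad2, and the high nad2 arrays help to set those means. The shared highest arrays are therefore partly a product of that choice. Some matches among 3 arrays per group would also arise by chance. This is a description of the same arrays, and what the probe sets share was not tested.

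Of the 11 probe sets that name a mitochondrial gene together with a nuclear locus, 8 fell between dry seed and 48 h of light (median -2.07) and 7 between 12 and 48 h of stratification. Of all probe sets 15.4% and 8.35% fell in these comparisons. In the first hour of stratification 1 rose and 0 fell, beside 0.361% and 0.154% of all probe sets.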
